A study of Mus musculus with 4 samples.

Results

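Mouse podocytes of the MPC5 line were compared after incubation with IL-12 for 6 h (2 libraries) and after saline (2 libraries), and the matrix metalloproteinases (MMPs), the ADAMTS proteases and the tissue inhibitors of metalloproteinases (TIMPs) were examined. The members were all protein-coding genes of the deposited count table whose symbol is Mmp, Adamts or Timp followed by a number. The rule gave 45 of the 54532 genes of the table, of which 22 were MMPs, 19 were ADAMTS proteases and 4 were TIMPs. Mmp1a is listed as a polymorphic pseudogene in the table and was therefore not a member. MPC5 is a conditionally immortalized line that proliferates with interferon-γ at a permissive temperature and differentiates after interferon-γ is withdrawn. IL-12 was used at 400 ng/ml. Both groups were the same line, and separate cultures are not mentioned for the libraries of either group, so the p-values measure only the spread between these libraries, which may be technical.

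MMPs are zinc-dependent endopeptidases that are made as inactive zymogens and cut collagens, laminins, fibronectin and many cell surface proteins. ADAMTS proteases are secreted relatives with thrombospondin repeats, which cut proteoglycans such as versican and aggrecan, process procollagens or act on microfibrils. TIMPs bind the active site of these enzymes and block it, and in the glomerulus this balance bears on the turnover of the basement membrane on which podocytes sit.

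In the mouse genome 9 of the MMP members lie side by side on chromosome 9, from 7272514 to 7699585 of GRCm38, and this group held the member with the smallest adjusted p-value, Mmp10 (stromelysin-2). The sequence before its start is shown because Mmp10 was the member of the group with enough counts for a test. It was taken from the RefSeq windows of GRCm38.p6, which cover 250 bases before and 50 bases after each annotated start and which matched 31 of the 45 members. The 250 bases before the start lie on the plus strand at chr9:7502092-7502341, and capitals mark the letters TGANTCA and the TATA box letters TATAAA. In TGANTCA, N is any base, and AP-1 factors are known to bind the forms TGAGTCA and TGACTCA.

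Mmp10: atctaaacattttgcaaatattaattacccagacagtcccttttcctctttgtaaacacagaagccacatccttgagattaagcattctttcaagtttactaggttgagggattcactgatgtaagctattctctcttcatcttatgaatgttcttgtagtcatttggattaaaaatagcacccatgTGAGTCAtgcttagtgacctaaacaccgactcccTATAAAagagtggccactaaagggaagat

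Both strands were searched for the AP-1 element (TGANTCA), the TATA box (TATAAA), a SMAD element (CAGACA) and a TEAD element (GGAATG), and no match of one overlapped a match of another in Mmp10. TGANTCA was present in 7 of the 9 windows of the chromosome 9 group and in 0 of the 22 other members that had a window, against 7.81% of all 32851 RefSeq windows. All 7 of these windows also held TATAAA, which 13.6% of all windows held. The letters CAGACA and GGAATG were in 21% and 14.7% of all windows, and they were in 6 and 2 of the 31 members. The 7 stretches around TGANTCA are shown to let the members of the group be compared. They start 20 bases before the element and end at most 43 bases after it, without crossing the annotated start.

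Mmp13: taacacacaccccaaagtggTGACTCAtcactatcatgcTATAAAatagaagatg
Mmp12: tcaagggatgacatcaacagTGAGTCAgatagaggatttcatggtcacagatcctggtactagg
Mmp1b: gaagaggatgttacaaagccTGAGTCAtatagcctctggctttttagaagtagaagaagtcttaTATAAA
Mmp3: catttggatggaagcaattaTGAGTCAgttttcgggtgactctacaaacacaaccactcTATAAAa
Mmp10: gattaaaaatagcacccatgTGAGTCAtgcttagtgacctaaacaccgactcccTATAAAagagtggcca
Mmp20: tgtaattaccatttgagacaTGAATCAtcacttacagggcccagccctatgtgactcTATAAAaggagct
Mmp7: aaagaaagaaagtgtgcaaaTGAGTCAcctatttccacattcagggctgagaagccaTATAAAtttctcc

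In capitals are the TGANTCA element and, where the stretch reaches it, TATAAA. The stretches lie at chr9:7272459-7272513, chr9:7347310-7347373, chr9:7388070-7388139, chr9:7445756-7445821, chr9:7502259-7502328, chr9:7628116-7628185 and chr9:7692007-7692076, on the minus strand for Mmp1b and on the plus strand for the others. The spacing between both elements ranged from 12 bases in Mmp13 to 41 in Mmp12, where TATAAA lay beyond the start, with 27 in Mmp10, 30 in Mmp7 and Mmp20, 32 in Mmp3 and 37 in Mmp1b. Mmp3 and Mmp10, both stromelysins, had 69.3% identical bases over 261 aligned positions of their windows. The alignment allowed gaps, positions opposite a gap were not counted, and no other pair was aligned. The windows of Mmp8 and Mmp27 held no TGANTCA. The match in Mmp20 was TGAATCA, outside the forms TGAGTCA and TGACTCA that the other members held, and the share of all windows also counts any base at N. A match is a description of these letters and does not show that a factor was bound. No window was listed for Mmp9, Adamts6 and Adamts7.

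The authors deposited raw counts per gene, with totals from 18355379 to 20098012 per library, at which 3 counts correspond to 0.149 to 0.163 CPM (counts scaled to library size) before TMM scaling, a floor that covers counting error only. Synpo, Cd2ap, Actn4 and Podxl, which podocytes express, had 992 to 26162 counts in every library. Nphs1, a defining gene of the slit diaphragm, had 1 count in all, and Ptpro and Tcf21 had 0. The tubule markers Lrp2 and Cdh16 were also abundant, and the sum of the 5 tubule markers was 829.5 to 866 CPM in the control libraries and 639 to 677 CPM in the IL-12 libraries, with Umod and Slc34a1 at 0. The 8 leukocyte markers summed to 26.6 to 29.1 CPM and 16.1 to 20.3 CPM, almost all from Csf1r and Cd68, with Cd3e and Adgre1 at 0. The 6 mesangial and fibroblast markers summed to 67.8 to 68.6 CPM and 69.3 to 79.6 CPM, with Lum at 0, and the 5 endothelial markers stayed between 0.159 and 0.556 CPM, with Emcn at 0. The part of these differences in the results below was not tested. All libraries came from the same line, and the counts do not tell whether the line itself or other cells expressed these markers. Fewer cells of a type cannot be told apart from less RNA per cell in such samples.

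Of the 45 members, 12 had no count in any library, 13 had counts but were under the filter on low counts, and 20 were tested. The comparison asked which of these genes podocytes changed within 6 h of IL-12. In the quasi-likelihood test of edgeR, with p-values adjusted by Benjamini-Hochberg over 14095 genes, 6 members were higher in the IL-12 treatment group (Mmp9, Mmp10, Mmp24, Adamts6, Timp1 and Timp3) and 4 were lower (Mmp11, Adamts1, Adamts7 and Adamts9) at an adjusted p below 0.05. These are 30% and 20% of the members tested, where 16.1% and 14.4% of all genes tested were higher and lower. With a change over 2-fold as well, the criteria of the study, 3 members were higher (15% of the members tested, against 0.858% of all genes tested) and 0 were lower (against 0.752%). No test was made of whether these shares differ. Of the 3 members over 2-fold, Mmp24 passed the filter on low counts only through the IL-12 libraries, where it was high. The shares of 30% and 15%, which both count Mmp24, are therefore given as a description only. In 15 members both IL-12 libraries lay on 1 side of both control libraries, which is 75% against 62.9% of all genes tested. The share of 75% also counts Mmp24 and is likewise a description only. The median log2 fold change of the 20 members was 0.01, beside -0.002 over all genes tested. With scaling by total counts in place of TMM, 1765 genes were higher and 2590 lower over all genes, against 2267 and 2030, and 6 members were higher and 5 lower.

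**Figure D1:**
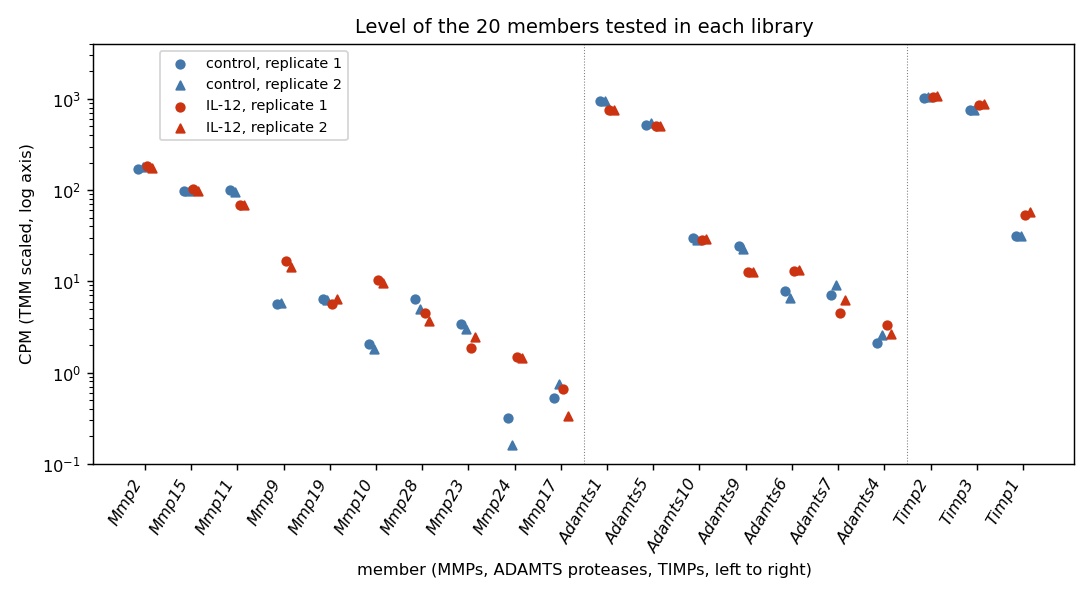
Level of the 20 members tested, in CPM on a log axis, with 1 point for each of the 4 libraries (blue, control; red, IL-12; circles, replicate 1; triangles, replicate 2). The red points of Mmp9, Mmp10, Mmp24, Adamts6 and Timp1 sit above the blue ones and those of Mmp11 and Adamts9 below, while Mmp2, Mmp15 and Adamts10 overlap.

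Of the gelatinases, which degrade denatured collagen and type IV collagen, Mmp9 rose and Mmp2 did not pass the test. Mmp2 (gelatinase A) had 3193 and 3361 counts in controls against 3645 and 3198 with IL-12. Its groups overlapped once scaled, with 173 ± 6.74 CPM and 181 ± 5.29 CPM (SD, n = 2), and the log2 fold change of 0.06 (95% confidence interval -0.03 to 0.15) did not pass the test (adjusted p = 0.316, edgeR). Mmp9 (gelatinase B, ENSMUSG00000017737) had 106 and 109 counts in controls against 327 and 259 with IL-12. Both IL-12 libraries were thus well above both control libraries, a 2.71-fold difference with a log2 fold change of 1.44 (interval 1.17 to 1.72, adjusted p = 1.01e-07, edgeR). On the deposited FPKM scale, which takes gene length into account, Mmp9 had 1.58 and 1.63 in controls and 4.67 and 4.05 with IL-12, far below Mmp2, which had 49.9 to 54.7 in the 4 libraries.

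Among the genes named stromelysins, Mmp10 rose and Mmp11 fell. The enzymes of Mmp3 and Mmp10 cut proteoglycans, laminin and fibronectin and can activate other MMPs. Mmp10 (ENSMUSG00000047562, chromosome 9 from 7502352 to 7510240) had 39 and 34 counts in controls against 206 and 175 with IL-12. That is 1.93 ± 0.182 CPM and 10.04 ± 0.523 CPM (SD, n = 2), a 5.19-fold difference without overlap. The log2 fold change of Mmp10 was 2.38 (standard error 0.18, adjusted p = 8.57e-09, edgeR). Mmp3 (stromelysin-1), its neighbour on chromosome 9, had only 6 and 3 counts in controls and 3 in each IL-12 library, so a difference was not detectable at this depth. Mmp11 (stromelysin-3, ENSMUSG00000000901, chromosome 10 from 75923222 to 75936496), which unlike most MMPs is activated by furin inside the cell, had 1880 and 1789 counts in controls against 1365 and 1236 with IL-12. It fell 1.41-fold, from 97.0 ± 3.15 CPM to 68.7 ± 0.481 CPM (SD, n = 2). For Mmp11 the log2 fold change was -0.50 (standard error 0.05, adjusted p = 2.81e-07, edgeR). The gene on the opposite strand at this place, Chchd10, had 42 counts over the 4 libraries against 6270 for Mmp11.

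The membrane-type MMPs are tethered to the cell surface. Mmp15 was the abundant one, with 1851 and 1840 counts in controls against 2033 and 1756 with IL-12. Its groups overlapped in CPM, and the log2 fold change was 0.03 (interval -0.07 to 0.13, adjusted p = 0.644, edgeR). Mmp14 (MT1-MMP), known as an activator of pro-MMP2 and widely expressed in matrix-producing cells, was almost without reads. It had 1 and 0 counts in controls against 0 and 1 with IL-12, although the flanking genes Mrpl52 and Lrp10 had 2779 and 10444 counts over the 4 libraries and no gene of the table overlaps it. Mmp24 (MT5-MMP, ENSMUSG00000027612, chromosome 2 from 155775342 to 155818366) rose from 6 and 3 counts to 29 and 26. Its log2 fold change of 2.58 was the largest among the members tested but rested on few counts (standard error 0.49, interval 1.54 to 3.61, adjusted p = 0.000496, edgeR). Both control libraries were under the filter minimum of 10 counts, so Mmp24 was tested only through the IL-12 libraries, where it was high. BC029722 overlaps the end of Mmp24 on the opposite strand and had 2747 counts against 64, and since no source states that strand was used in counting, the value of Mmp24 is uncertain. BC029722 itself had a log2 fold change of 0.20 (adjusted p = 0.0412, edgeR). Mmp17 had 10 and 14 counts against 13 and 6, which overlapped, Mmp25 had 0 and 0 against 2 and 2, and Mmp16 had none.

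The remaining MMPs were low. Mmp19 had 111 to 122 counts in each library and did not differ detectably (log2 fold change -0.07, interval -0.40 to 0.25). It overlaps Tmem198b on the opposite strand, which had 786 counts against 466. Mmp23 had 65 and 56 counts against 37 and 44, and Mmp28 (epilysin) had 121 and 94 against 90 and 67. The groups of Mmp23 and Mmp28 did not overlap in CPM, but neither gene passed the test (adjusted p = 0.0899 and 0.0771, edgeR), with log2 fold changes of -0.58 and -0.46. The collagenases were nearly silent, since Mmp8 and Mmp1b had no count and Mmp13 had 0 and 0 counts in controls against 2 and 1 with IL-12. Mmp7 (matrilysin), Mmp12 (macrophage elastase), Mmp20 (enamelysin) and Mmp27 were also at 0, and Mmp21 had 3 and 2 counts against 0 and 0. Within the chromosome 9 group, 6 of the 9 genes therefore had no count in any library, and the test was possible for Mmp10 alone.

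**Figure D2:**
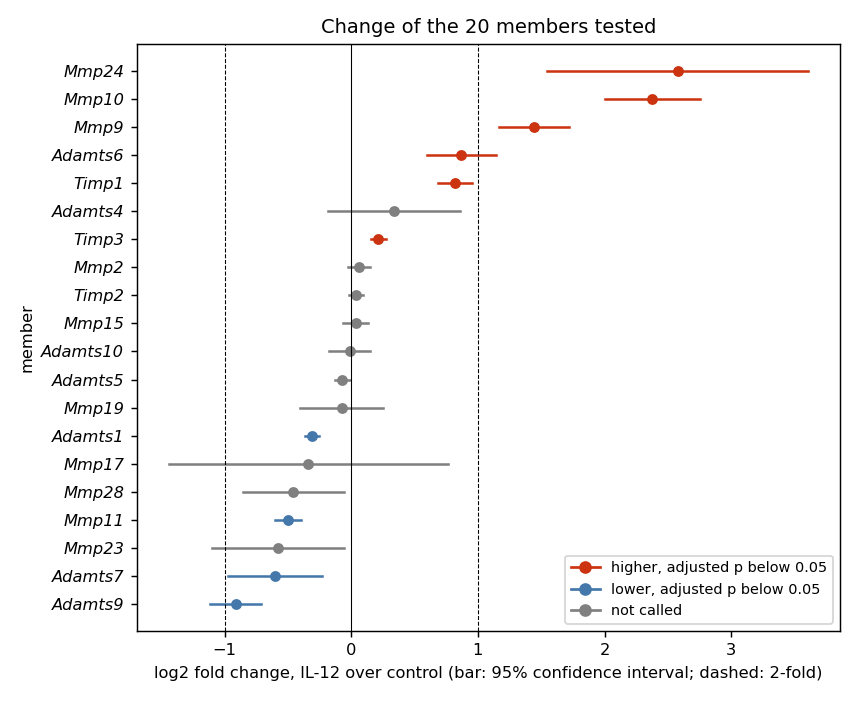
Log2 fold change of the 20 members tested, IL-12 over control, with its 95% confidence interval as a bar (red, higher; blue, lower; grey, not called; dashed lines, 2-fold). The intervals of Mmp10, Mmp9 and Mmp24 lie wholly above 2-fold, and that of Adamts9 (-1.12 to -0.71) crosses it on the lower side. Mmp24 passed the filter on low counts only through the IL-12 libraries.

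The hyalectan-cleaving ADAMTS proteases held the enzymes with the most counts, Adamts1 and Adamts5. Of the 4 tested, Adamts1 and Adamts9 fell and 0 rose, where 14.4% and 16.1% of all genes tested were lower and higher, and no test was made of this difference. Adamts1 (ENSMUSG00000022893, chromosome 16 from 85793827 to 85803113), which cuts versican and aggrecan, had 17834 and 17776 counts in controls against 15059 and 13733 with IL-12. It fell 1.24-fold, from 942 ± 0.336 CPM to 760.2 ± 1.503 CPM (SD, n = 2), and the spread within each group was small beside this change (log2 fold change -0.31, standard error 0.03, adjusted p = 3.78e-08, edgeR). Adamts5, the main aggrecanase of mouse cartilage, is the neighbour of Adamts1 on chromosome 16 and had 9853 and 10173 counts against 9946 and 9167. Its log2 fold change of -0.07 (interval -0.13 to -0.01) did not pass the adjusted threshold (adjusted p = 0.0899, edgeR), and with scaling by total counts it was -0.11 and did. Adamts9 (ENSMUSG00000030022, chromosome 6 from 92772699 to 92943492), a versican-cleaving protease, had 468 and 431 counts in controls against 249 and 229 with IL-12. That is 23.8 ± 1.32 CPM and 12.6 ± 0.0504 CPM (SD, n = 2), a 1.88-fold decrease without overlap and the largest fall among the 20 members tested (log2 fold change -0.91, standard error 0.10, adjusted p = 7.47e-07, edgeR). Adamts4 had 40 and 49 counts against 65 and 48 (log2 fold change 0.34, interval -0.18 to 0.86). Adamts4 did not pass the test (adjusted p = 0.341, edgeR), and its value is uncertain because strand may not have been used in counting. Adamts8 and Adamts15, which are neighbours on chromosome 9, and Adamts20 had no count.

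Of the microfibril-linked proteases, Adamts6 rose. Adamts6 (ENSMUSG00000046169, chromosome 13 from 104287835 to 104496695) had 148 and 124 counts in controls against 256 and 242 with IL-12, and no gene of the table overlaps it. Its level went from 7.19 ± 0.878 CPM to 13.2 ± 0.308 CPM (SD, n = 2), a 1.83-fold difference (log2 fold change 0.87, standard error 0.13, adjusted p = 3.91e-05, edgeR). Adamts10, its close relative, had 571 and 529 counts against 568 and 524. These overlapped, with a log2 fold change of -0.01 (interval -0.17 to 0.15, adjusted p = 0.929, edgeR). Adamts17 had 5 and 2 counts against 9 and 1, and Adamts19 had none.

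Adamts7, which cuts cartilage oligomeric matrix protein, had 135 and 171 counts in controls against 88 and 113 with IL-12. The groups did not overlap, but the libraries within them differed, with 8.09 ± 1.37 CPM and 5.35 ± 1.27 CPM (SD, n = 2), and the log2 fold change was -0.60 (standard error 0.18, adjusted p = 0.014, edgeR). The call was lost without control replicate 2 (-0.42, adjusted p = 0.129) and without IL-12 replicate 1 (-0.37, adjusted p = 0.252). Adamts7 also overlaps Tbc1d2b on the opposite strand, which had 1597 counts against 507. The procollagen N-proteinases, which trim fibrillar procollagens, were close to the floor, with 0 and 0 counts against 3 and 5 for Adamts2, 1 and 1 against 6 and 2 for Adamts3, and 2 and 3 against 0 and 2 for Adamts14. Adamts12 had 0 and 0 counts against 2 and 2, Adamts13, which cuts von Willebrand factor, had 2 counts in all, and Adamts16 and Adamts18 had 21 and 7 counts in all. When the filter was dropped, the 13 members under it were tested and 0 passed the adjusted threshold.

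The inhibitors held the most abundant gene of the set, Timp2, and 2 of the 3 tested rose (66.7% against 16.1% of all genes tested, a difference not tested). Timp1 (ENSMUSG00000001131, chromosome X from 20870166 to 20874735), the inducible inhibitor, had 589 and 599 counts in controls against 1061 and 1039 with IL-12. This is 31.4 ± 0.458 CPM and 55.5 ± 2.69 CPM (SD, n = 2), a 1.77-fold difference well beyond the spread of either group (log2 fold change 0.82, standard error 0.07, adjusted p = 1.64e-08, edgeR). Timp3 (ENSMUSG00000020044, chromosome 10 from 86300372 to 86349506), which is bound to the matrix and also inhibits ADAMTS proteases, had 14341 and 14244 counts against 17131 and 16066. Its rise was small but without overlap, from 756 ± 1.62 CPM to 877 ± 15.6 CPM (SD, n = 2), which is 1.16-fold (log2 fold change 0.21, standard error 0.03, adjusted p = 5.68e-06, edgeR). Timp2, which takes part in pro-MMP2 activation as well as inhibition, had 19493 and 19654 counts against 20838 and 19424. Its log2 fold change of 0.04 (interval -0.02 to 0.09) did not pass (adjusted p = 0.284, edgeR), and Timp4 had no count. Timp1 and Timp3 each lie within a synapsin gene of the opposite strand, Syn1 and Syn3, which had 32 and 83 counts over the 4 libraries.

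Per gene length, the order of the levels was led by Timp2 with 264 and 267 FPKM in the control libraries, followed by Adamts1 with 177 and 178 and Timp3 with 92.9 and 92.7. Mmp2 with 49.9 and 52.9 FPKM and Adamts5 with 48.1 and 49.99 came next and overlapped. Timp1 with 35.0 and 35.8 FPKM and Mmp11 with 35.7 and 34.1 overlapped too, and Mmp15 had 18.1 in both. In the IL-12 libraries Timp1 reached 60.4 and 64.7 FPKM, above Mmp2 with 54.7 and 52.5, while Mmp11 stood at 24.9 and 24.6.

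Summed over each family, the MMPs had 112 FPKM in each control library and 113.5 and 109 FPKM in the IL-12 libraries, so the groups overlapped. The ADAMTS sum was 235 and 237 FPKM in controls against 199.7 and 199.9 FPKM with IL-12, and Adamts1 with Adamts5 made up 95.2% to 96.0% of it. The TIMP sum was 392 and 396 FPKM against 437.5 and 449.7 FPKM. The ratio of TIMP to MMP sums was 3.50 and 3.52 in controls against 3.86 and 4.12 with IL-12, with no overlap, and these sums were not tested. Within the MMP sum, Mmp9 and Mmp10 together went from 2.48% and 2.38% to 9.45% and 8.87%, while Mmp2, Mmp11 and Mmp15 together went from 92.8% and 93.5% to 86.9% and 87.2%. Timp1 went from 8.93% and 9.03% of the TIMP sum to 13.8% and 14.4%.

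**Figure D3:**
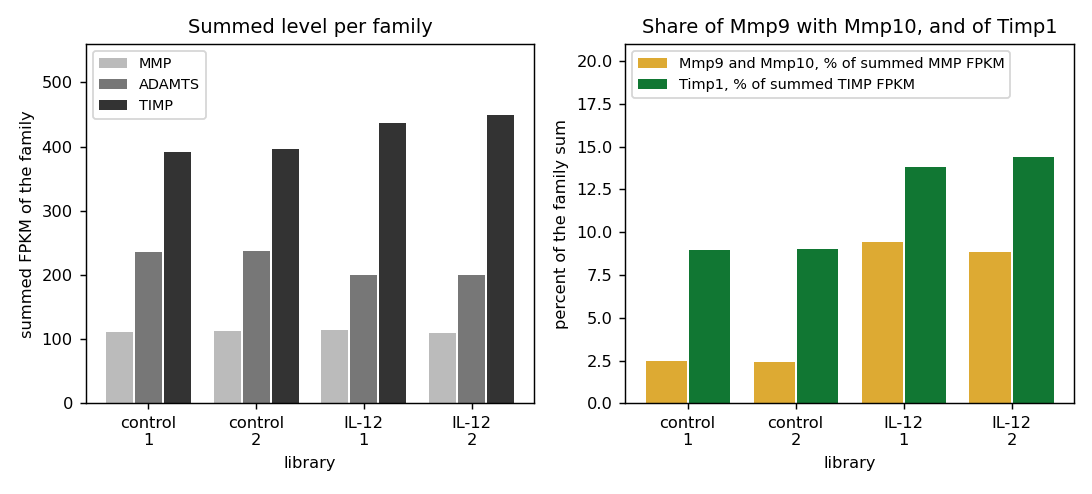
Left, summed FPKM of the MMP, ADAMTS and TIMP members in each of the 4 libraries. Right, Mmp9 and Mmp10 as a percent of the MMP sum and Timp1 as a percent of the TIMP sum, both of which are higher in both IL-12 libraries (9.45% and 8.87%, and 13.8% and 14.4%) than in both control libraries.

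Genes that act with these proteases were counted in lists by function. Of 13 partners of MMPs, 6 were tested, 1 rose (16.7%) and 2 fell (33.3%), beside 16.1% and 14.4% of all genes tested, and whether these shares differ was not tested. Furin, the convertase that activates membrane-type MMPs and Mmp11, had 151.5 CPM in the control group and 167 CPM in the IL-12 treatment group (log2 fold change 0.14, adjusted p = 0.0119, edgeR). Reck, a membrane-anchored inhibitor of MMPs, fell with 279 and 285 counts against 210 and 202 (log2 fold change -0.45, adjusted p = 0.0036, edgeR). Lrp1, an endocytic receptor that clears several MMPs, ADAMTS proteases and TIMPs, fell by 0.21 on the log2 scale (adjusted p = 5.76e-06, edgeR). Bsg, an inducer of MMPs, did not pass (log2 fold change -0.06, adjusted p = 0.183, edgeR). The median log2 fold change of the 6 genes was -0.08.

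Of 9 ADAM proteases, the membrane-anchored relatives of the ADAMTS family, 7 were tested, of which 2 rose (28.6%) and 1 fell (14.3%), beside the same 16.1% and 14.4% of all genes tested, with a median log2 fold change of -0.02. Adam12, which sheds growth factors such as HB-EGF, had 143 and 142 counts in controls against 804 and 679 with IL-12. Its log2 fold change was 2.38 (standard error 0.10, adjusted p = 2.04e-12, edgeR). Adam9 rose by 0.12 (adjusted p = 0.0111, edgeR) and Adam17, the TNF-α convertase that Timp3 inhibits, fell by 0.14 on the log2 scale (adjusted p = 0.037, edgeR). Of 7 ADAMTS-like genes, which lack a protease domain, 4 were tested and 1 rose (25% against 16.1% of all genes tested), Adamtsl3, with 29 and 24 counts against 103 and 70 (log2 fold change 1.70, adjusted p = 4.34e-05, edgeR), and the median was 0.16. Of 5 astacin proteases, 3 were tested, 1 (Tll1) rose (33.3% against 16.1%), and the median was 0.06. Tll1 had 6 and 0 counts in controls against 46 and 33 with IL-12 (log2 fold change 3.66, standard error 0.59). It passed the filter on low counts only through the IL-12 libraries, so this share is a description only. Of 12 ADAMTS substrates, 4 were tested, with a median of 0.50, and 1 rose (25% against 16.1%). This was Col1a1 (log2 fold change 0.70, adjusted p = 0.000167, edgeR). Vcan, the substrate of Adamts1 and Adamts9, had 6 and 8 counts against 17 and 11 and did not pass (adjusted p = 0.177, edgeR). Like Tll1, Vcan passed the filter on low counts only through the IL-12 libraries, where it was high. The median and the share of the ADAMTS substrates, which count Vcan, are therefore a description only. Acan and Ncan had no count.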

How the data were processed

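RNA was sequenced from podocytes in 4 libraries, 2 per group, grouped by the treatment in the sample labels. The authors deposited raw counts per gene and FPKM values, which are scaled for gene length and library size. The submitters' processing notes name HISAT2, StringTie and the build mm9, without versions. The deposited gene coordinates equal GENCODE M21 (GRCm38) for 98.3% of genes and for 44 of the 45 members, so coordinates are given in GRCm38. The counting program and its strand setting are not given in the sources used here.

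The count test used edgeR 4.0.16 under R 4.3.3 (filterByExpr with a minimum of 10 counts and 15 in total, TMM scaling, quasi-likelihood test, Benjamini-Hochberg adjustment over 14095 genes). A gene was called at an adjusted p below 0.05, with or without a change over 2-fold. Standard errors are the log2 fold change over the square root of F. CPM values use TMM factors. FPKM values were used to compare levels between genes and to sum levels over a family, and are given per library in both groups with no test. An exact permutation test of 2 against 2 cannot go below 0.333, so p-values rest on edgeR's spread across genes. Replicate libraries differed beyond sampling noise (chi-square per degree of freedom 2.13 and 2.41). Alternatives were other scalings, no filter, the DESeq2 1.42.0 Wald test, each library left out, and the replicate number as a block.

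Every member is accounted for, and counts per library are given for members that were called or had at least 10 CPM. The members, gene lists and marker lists were chosen with earlier results of these data known, and the promoter motifs after the calls had been seen. Some items are not reported here. Figures were drawn with matplotlib 3.10.9.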

Additional observations from a re-analysis of the deposited data

How the results depend on the processing

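Of 178 log2 fold changes of members over 9 alternatives, 166 kept their direction and their side of the adjusted threshold, 4 were no longer past it, 2 passed it newly and 6 changed sign. The calls of Mmp9, Mmp10, Adamts6, Timp1, Timp3, Adamts1, Adamts9 and Mmp11 held in all 9, with log2 fold changes from 1.33 to 1.54 for Mmp9, 2.28 to 2.48 for Mmp10 and -0.97 to -0.85 for Adamts9. Mmp24 was called in the 8 that gave it an adjusted p (2.17 to 3.14), and DESeq2 gave it none. Adamts7 was also lost without the filter (adjusted p = 0.077) and with the DESeq2 Wald test (0.0819), and over its alternatives the adjusted p ranged from 0.000723 to 0.252. Adamts5 was called with total counts (-0.11) and Mmp28 without control replicate 2 (-0.63, adjusted p = 0.0254). The sign changes were all in members not called. With total counts Mmp15 was at -0.006 and Timp2 at -0.002. Leaving out each library in turn moved Adamts10 between -0.063 and 0.043, Mmp15 between -0.007 and 0.075, Mmp17 between -0.921 and 0.051 and Mmp19 between -0.17 and 0.022. With the replicate number as a block, 6 members were higher and 4 lower, the same genes as without it. Same-numbered libraries did not deviate together (correlation of -0.019 across genes). Over all genes, the DESeq2 Wald test called 1481 higher and 1204 lower (67 and 40 over 2-fold) and the fit without IL-12 replicate 1 called 1404 and 1124 (82 and 62 over 2-fold), against 2267 and 2030 (121 and 106). Members near the floor of 3 counts could not show a difference at this depth.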
